A study of Mus musculus with 11 samples.

Results

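The enteric nervous system genes of mouse colon were examined as a module of 34 genes, 4 of which (S100b, Sox10, Gfap and Entpd2) mark enteric glia and the rest enteric neurons, their transmitters or the signals of their development. The members were taken as the rows of the deposited table whose Ensembl identifier carries 1 of the 34 listed symbols. All 34 were found among the 22836 genes of the table, and 32 of them reached the mean of 10 normalized counts that was required for testing, among 16781 such genes. Npy and Th stayed under it.

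Polyadenylated RNA of colon was sequenced in 11 mouse libraries. The 3 control libraries came from Tfam fl/fl mice, in which loxP sites flank the gene of the mitochondrial transcription factor TFAM and no Cre is present. The 3 libraries called knockout here came from Tfam fl/fl Cd4 Cre mice without further treatment, and the 5 libraries called transferred came from Tfam fl/fl Cd4 Cre mice that received CD4 T cell therapy. The floxed allele was thus shared by the 3 groups. Cd4 Cre acts in T cells, CD8 T cells included, because the Cd4 gene is switched on during thymic development, so neurons, glia and muscle are not its targets. The labels give no age, strain or sex. The study describes donor cells from CD45.1 mice of 7 weeks and transferred and untreated mice of 10 months in the transfer experiment. The labels number the samples and name no animals. The study counts mice as n and treats plotted points as biological samples, so the spread behind a p-value is read as that between mice.

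The enteric nervous system lies in the wall of the gut as the myenteric plexus between the muscle layers and the submucosal plexus beneath the mucosa. Its neurons arise from neural crest cells that need RET, the receptor tyrosine kinase for GDNF, and the transcription factors SOX10 and HAND2. Excitatory motor neurons use acetylcholine and the tachykinins encoded by Tac1, inhibitory motor neurons use nitric oxide made by NOS1 together with the peptide VIP, and glia surround both and carry S100B, SOX10 and GFAP. An extract of whole colon mixes these cells with mucosa, muscle and blood cells. Fewer cells of a type and less RNA per cell cannot be told apart in such bulk samples.

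Reads in genes numbered 18214741 to 19178986 per library. Values are normalized counts, which are read counts divided by 1 factor per library, so that 1 read was worth 0.913 to 1.10 normalized counts. The share of mitochondrially encoded reads was 4.63% to 6.73% in the control, 2.55% to 3.44% in the knockout and 3.84% to 4.82% in the transferred libraries. Changes are log2 fold changes on the scale log2(normalized count + 1), with standard errors and Benjamini-Hochberg adjusted p from limma fitted to all 16781 genes, and a member is said to rise or fall where that p was under 0.05.

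Per kilobase of annotated exon, the module spanned a wide range in control colon. The highest mean levels were those of the adhesion molecule gene L1cam (383 normalized counts per kilobase), the peripheral neurofilament gene Prph (279.8), the crest transcription factor gene Hand2 (276), the calretinin gene Calb2 (265), the glial ectonucleotidase gene Entpd2 (237) and Uchl1 (218). The lowest of the 32 tested members were Chat (3.46 per kilobase), Dbh (8.08) and Elavl3 (8.79). In knockout colon L1cam kept the first place with 269.9 per kilobase, followed by Tac1 with 169 and Entpd2 with 165, whereas Prph was at 48.6. Uncertain members are those whose exons overlap others in the annotation. On the same strand Entpd2 shares 612 exonic bases with Npdc1, Elavl3 256 with Gm49318 and L1cam 100 with Arhgap4. Nefl and Nefm share 1152 bases on opposite strands. Slc18a3 lies inside the Chat locus and shares 1816 bases with the noncoding gene Litchi on the opposite strand. Further members, such as Chrna3 with Chrna5 (790 bases), overlap genes on the opposite strand. Which strand setting the counter used is not given.

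Libraries of 1 group did not stand equally. Control 3 was the lowest control library for 29 of the 32 tested members, knockout 4 the lowest knockout library for 22 and transferred 4 the lowest transferred library for 21. Knockout 1 was the highest of its group for 23 members, control 2 for 22 and transferred 2 for 19.

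The first comparison asks how the colon of mice with T cells lacking TFAM differed from control colon. Most of the module was lower in knockout colon. Of 32 tested members 27 fell, 1 rose (Tac1) and 4 did not pass the test (Chat, Phox2a, Ret and Gfra3), against 22.9% of all tested genes that fell and 22.7% that rose. Their median log2 fold change was -2.28, beside 0.015 over all tested genes. Knockout values lay under all control values for 28 tested members, against 27.9% of all tested genes, and over them for Tac1 alone, against 29.0%.

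**Figure D1:**
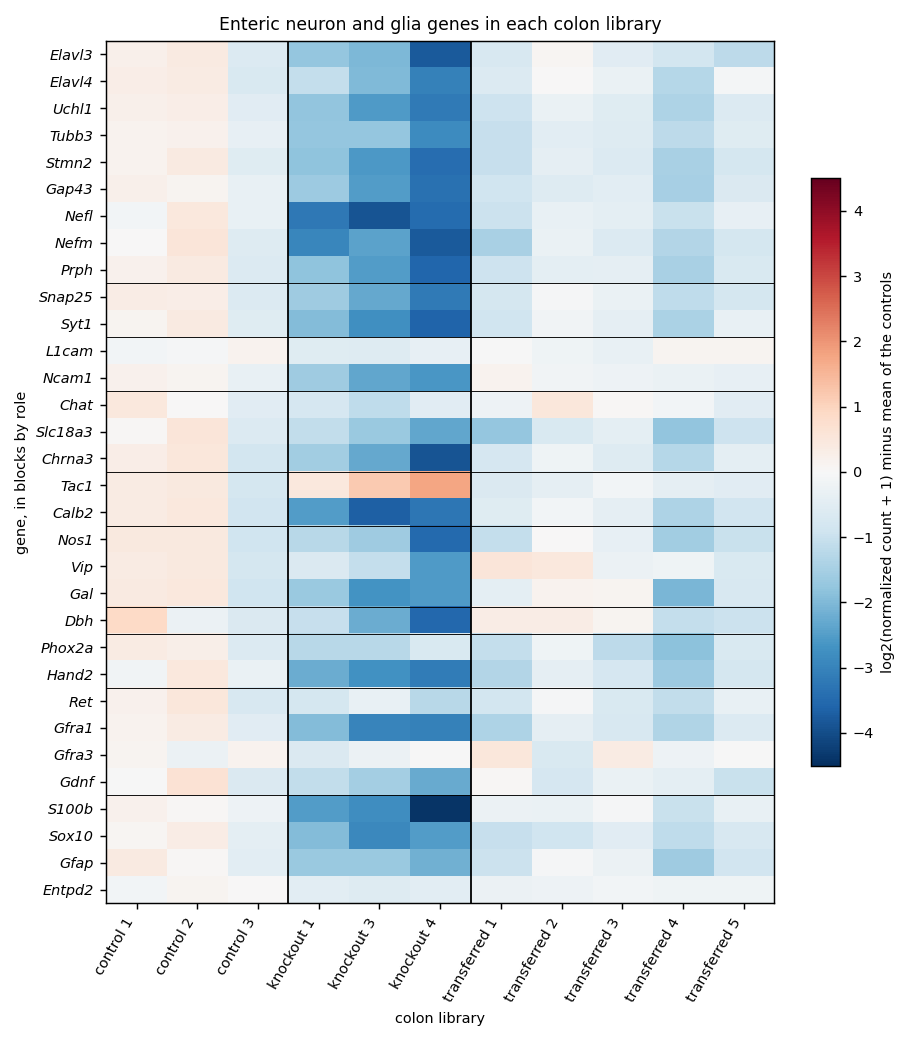
Heat map of the 32 tested members (rows, in blocks by role) in the 11 colon libraries (columns), as log2(normalized count + 1) minus the mean of the 3 control libraries, blue for lower and red for higher. The knockout columns are blue in most rows, the Tac1 row is red there, and the transferred columns are paler.

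The genes that mark neurons as such fell together. All 9 members for neuronal RNA binding, cytoskeleton and axon growth fell, by 2.04 to 3.53 on the log2 scale. Uchl1, which encodes the ubiquitin hydrolase PGP9.5 used to stain nerves, had 710.2, 741 and 423 normalized counts in the control, 176, 104 and 65.7 in the knockout and 318, 493, 419.6, 233 and 396 in the transferred libraries. The knockout libraries all lay under the control libraries, and the transferred libraries stood between them with an overlap with control 3. Its log2 fold change between knockout and control was -2.50 (standard error 0.36, adjusted p = 0.000256). Nefl (chr14:68321268-68326544, plus strand, GRCm39), the light neurofilament gene, had 339, 519.9 and 294 normalized counts in control colon and 39.2, 24.2 and 32.9 in knockout colon, with no overlap. It was the member with the largest fall, -3.53 (standard error 0.27, adjusted p = 8.05e-06), and its control mean was 11.99 times its knockout mean. The medium neurofilament gene Nefm fell by 3.05 (standard error 0.41, adjusted p = 0.000189), from 125 ± 47.99 to 14.6 ± 6.82 normalized counts (SD, n = 3 each).

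Prph, the intermediate filament gene of peripheral neurons, went from 673, 781 and 380.4 normalized counts in control colon to 167, 103 and 48.2 in knockout colon. Knockout 4 held the lowest of these values, and the highest knockout value was under the lowest control value. The change was -2.62 (standard error 0.42, adjusted p = 0.000513). The neuronal tubulin gene Tubb3 had 393 ± 78.3 normalized counts in control and 95.1 ± 35.9 in knockout colon, the stathmin gene Stmn2 387 ± 119 and 67.6 ± 36.7, and the growth cone gene Gap43 203 ± 40.2 and 39.04 ± 23.4 (SD, n = 3 each). Their log2 fold changes were -2.10, -2.60 and -2.50, with limma adjusted p of 0.000261, 0.000339 and 0.000429. Elavl3 and Elavl4 encode the Hu RNA-binding proteins that antibodies against HuC/D detect in nerve cell bodies. Both were scarce, at 60.6 ± 20.5 and 64.4 ± 23.4 normalized counts in control colon and 11.2 ± 6.99 and 16.5 ± 11.04 in knockout colon (SD, n = 3 each), and both fell, by 2.51 and 2.04 on the log2 scale (adjusted p = 0.00215 and 0.00595).

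The pair of vesicle release genes moved with them. Snap25, a subunit of the SNARE fusion machinery, had 434, 419.5 and 223 normalized counts in the control libraries and 114, 68.8 and 37.2 in the knockout libraries, a change of -2.36 (standard error 0.40, adjusted p = 0.000711). Syt1, the calcium sensor of synaptic vesicles, fell by 2.78 (adjusted p = 0.000409), from 221 ± 70.7 to 33.8 ± 18.9 (SD, n = 3 each). The adhesion molecule genes parted in size. Ncam1 had 271, 258 and 184 normalized counts in control and 77.3, 45.5 and 37.2 in knockout colon, a change of -2.18 (standard error 0.26, adjusted p = 7.91e-05). L1cam, the most abundant member per kilobase, had 2797, 2947 and 3377 in control and 2084, 2013 and 2324 in knockout colon and fell by 0.50 (standard error 0.13, adjusted p = 0.00866). For both genes the knockout libraries lay under the control libraries.

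**Figure D2:**
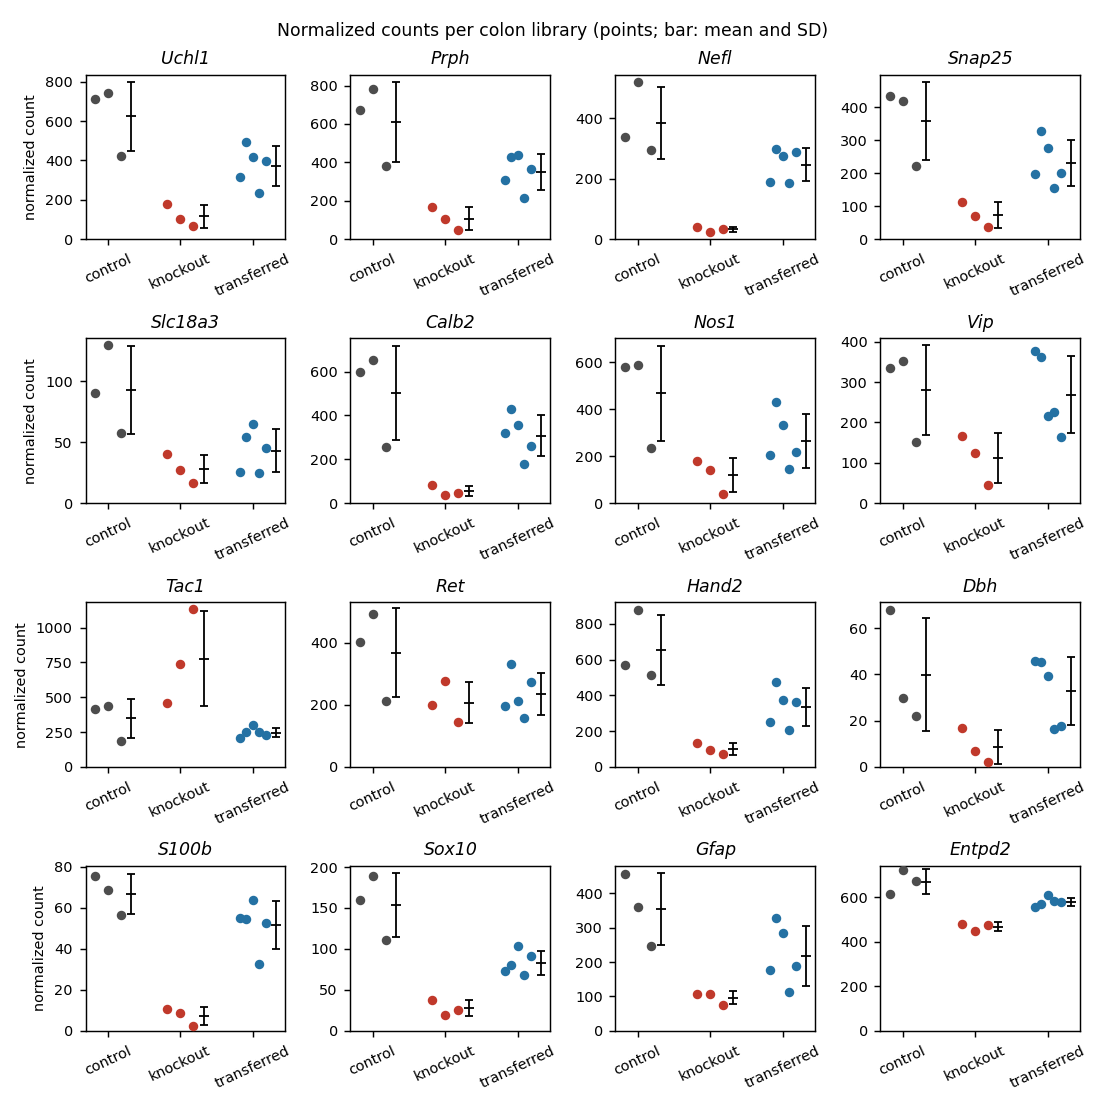
Normalized counts of 16 members in each colon library (points, in replicate order within a group), with the mean and SD of the group beside them; the vertical axes start at 0 and differ between panels. Knockout points lie under the control points for most genes, over them for Tac1, and overlap with them for Vip and Ret.

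Among the cholinergic genes, which make, load and sense acetylcholine, the receptor subunit gene Chrna3 had 196, 225 and 89.3 normalized counts in control and 52.9, 31.00 and 9.86 in knockout colon, a change of -2.58 (standard error 0.53, adjusted p = 0.00217). Slc18a3, the vesicular acetylcholine transporter, had 90.4, 129 and 57.3 in control and 40.1, 27.1 and 16.4 in knockout colon and fell by 1.70 (standard error 0.45, adjusted p = 0.00883). The knockout libraries were the lower ones for both. Chat, which encodes the enzyme that makes acetylcholine, was the scarcest tested member per kilobase, with 29.2, 20.9 and 14.3 normalized counts in control and 11.7, 8.72 and 14.2 in knockout colon. Its groups did not overlap, by a margin of under 1 read (14.3 against 14.2), and its change of -0.81 (standard error 0.35, adjusted p = 0.0789) missed the threshold. It passed without control 3 (-1.06, adjusted p = 0.0408; 0.0408 to 0.269 over the alternatives). At 34 reads over the 3 knockout libraries its counting error is large.

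The 2 members listed as excitatory and sensory markers diverged, and which cells held their RNA was not determined. Calb2, calretinin, had 598, 654 and 258 normalized counts in the control and 81.3, 35.8 and 48.2 in the knockout libraries. All knockout values were far under the lowest control value, and the change was -3.14 (standard error 0.41, adjusted p = 0.000147). Tac1 (chr6:7554120-7565834, plus strand, GRCm39), the precursor of substance P and neurokinin A, had 419, 440.4 and 189.6 normalized counts in the control, 457, 738 and 1134 in the knockout and 209.9, 247, 298, 249.6 and 231 in the transferred libraries. The 3 knockout libraries were the highest of the 11, with knockout 4, the lowest library for most other members, at the top, and the lowest of them lay close to the highest control library. Tac1 rose by 1.15 (standard error 0.34, adjusted p = 0.0173). The rise rested on single libraries: without control 3 it was 0.76 (adjusted p = 0.0647), without knockout 4 it was 0.83 (adjusted p = 0.0764), and with the replicate number as a block it was 1.10 (adjusted p = 0.0502). Tac1 is also made outside the gut wall's own neurons, among others in sensory neurons whose fibres reach the gut and in some enteroendocrine cells. Of 9 tested enteroendocrine genes 5 fell and 0 rose, against 22.9% and 22.7% of all tested genes. Among those that fell was Tph1, the serotonin synthesis enzyme of enterochromaffin cells (-1.39 (standard error 0.47, adjusted p = 0.0302)). The summed enteroendocrine level was 2774 to 7768 normalized counts in control and 1208 to 2250.3 in knockout colon. Its part in the Tac1 result was not tested.

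Of the inhibitory genes, Nos1, the neuronal nitric oxide synthase, had 581, 587 and 233 normalized counts in the control and 181, 140.5 and 37.2 in the knockout libraries, with no overlap and a wide spread in both groups. It fell by 2.11 (standard error 0.58, adjusted p = 0.0111). Vip, the vasoactive intestinal peptide, had 334, 353 and 151 in control and 167, 123 and 43.8 in knockout colon, where knockout 1 exceeded control 3. Its change of -1.42 (standard error 0.49, adjusted p = 0.0333) was the smallest fall among the called peptide genes and was lost without control 1 (-1.25, adjusted p = 0.0986), without control 2 (-1.21, adjusted p = 0.114), without knockout 4 (-0.86, adjusted p = 0.134) and in a fit of these 2 groups alone (-1.42, adjusted p = 0.0525). Gal, galanin, had 167, 176 and 67.3 and 39.2, 18.4 and 20.8 and changed by -2.30 (standard error 0.56, adjusted p = 0.00597). Npy was at 0.942, 2.98 and 1.103 normalized counts in control colon, at 0 reads in all 3 knockout libraries and at 1.83, 0, 0, 0.953 and 2.19 in transferred colon, all too few to compare.

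The catecholamine genes were scarce as well. Th, tyrosine hydroxylase, had 4.71, 8.95 and 2.21 normalized counts in the control and 0.979, 0.969 and 1.095 in the knockout libraries, which is 16 and 3 reads in all, and was not tested. Dbh, dopamine beta-hydroxylase, had 67.8, 29.8 and 22.1 in control and 16.6, 6.78 and 2.19 in knockout colon and fell by 2.27 (standard error 0.65, adjusted p = 0.0136). Control 1 held the highest value, and the call was lost without it (-1.81, adjusted p = 0.0565) and without knockout 4 (-1.64, adjusted p = 0.0574).

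Hand2, a crest transcription factor gene that enteric neurons need to differentiate, had 567, 879 and 516 normalized counts in control and 133, 95.9 and 70.1 in knockout colon. The groups were far apart, and the change was -2.71 (standard error 0.33, adjusted p = 9.41e-05). Phox2a, the homeodomain factor of autonomic neurons, had 56.5, 51.7 and 27.6 and 17.6, 17.4 and 26.3, a change of -1.07 (standard error 0.41, adjusted p = 0.0512), which lay just over the threshold. It passed under 9 of 22 alternatives, among them edgeR (adjusted p = 0.037), DESeq2 (0.0267) and the fits without control 3 (0.0246), transferred 2 (0.0365) or transferred 4 (0.0318), in a range of 0.0246 to 0.166. Its groups did not overlap, by a margin of about 1 read. In GDNF signalling, the ligand gene Gdnf fell by 1.63 (adjusted p = 0.00553), from 77.2, 123 and 48.5 to 35.2, 26.2 and 15.3 normalized counts. Its coreceptor gene Gfra1 had 238, 273 and 148 and 53.8, 26.2 and 25.2 and fell by 2.66 (standard error 0.36, adjusted p = 0.000186). Ligand and coreceptor were both lower in every knockout library than in any control library. The receptor gene Ret had 402, 493 and 212 in control and 201, 277 and 145 in knockout colon, so that knockout 3 exceeded control 3, and its change was -0.79 (standard error 0.35, adjusted p = 0.0814). Ret passed with DESeq2 (-0.84, adjusted p = 0.039) and without control 3 (-1.15, adjusted p = 0.0165), in a range of 0.0165 to 0.274. Gfra3, the coreceptor for artemin, had 33.9, 25.8 and 35.3 and 19.6, 26.2 and 30.7 and changed by -0.31 (standard error 0.33, adjusted p = 0.461).

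All 4 glia members fell. S100b (chr10:76085090-76097159, plus strand, GRCm39), a calcium-binding protein gene of glia, had 75.4, 68.6 and 56.2 normalized counts in the control, 10.8, 8.72 and 2.19 in the knockout and 54.8, 54.3, 63.9, 32.4 and 52.6 in the transferred libraries. Knockout colon held 22 reads of it over 3 libraries, so its counting error is large there. The change was -3.23 (standard error 0.43, adjusted p = 0.000175), the second largest fall of the module. Sox10, the transcription factor gene of crest cells and glia, had 159, 189 and 111 in control and 38.2, 19.4 and 25.2 in knockout colon and fell by 2.45 (standard error 0.28, adjusted p = 6.54e-05). Gfap, the glial filament gene, had 457, 359.9 and 246 and 107, 108 and 75.6 and fell by 1.83 (adjusted p = 0.00173). In each of these the knockout libraries stood apart under the controls. Entpd2, an ectonucleotidase of glia, had 613, 725 and 674 and 483, 448 and 476 and fell by 0.51 (standard error 0.09, adjusted p = 0.00101), a small change with a small spread.

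**Figure D3:**
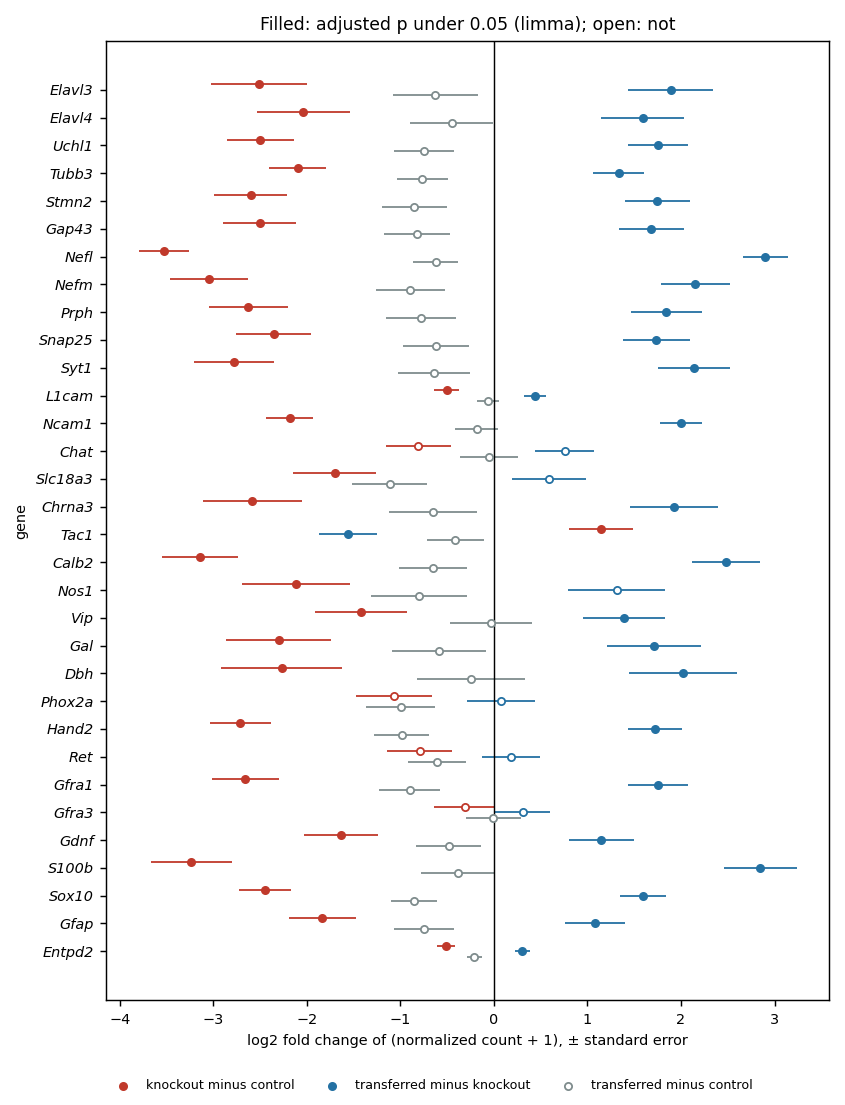
Log2 fold changes of the 32 tested members with standard errors, for knockout minus control (red), transferred minus knockout (blue) and transferred minus control (grey); filled points had a limma adjusted p under 0.05. Red points run from -3.53 for Nefl to 1.15 for Tac1, most blue points lie on the other side of 0, and all grey points are open and under 0, of which L1cam, Chat, Vip, Dbh and Gfra3 changed sign under at least 1 alternative.

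The promoter windows of a few members are shown because the neuronal genes that fell and Tac1 moved in opposite directions. RefSeq windows of 250 bases before and 50 bases after the annotated start, on GRCm38.p6 and in the direction of the gene, were found for 24 of the 34 members. Capitals mark the TATA box letters TATAAA, the CCAAT box letters CCAAT and the E-box letters CAGCTG on either strand, so ATTGG marks a CCAAT box on the other strand. The windows are chr15:99054924-99055223 (+) for Prph, chr10:5638968-5639267 (+) for Vip, chr6:7554811-7555110 (+) for Tac1 and chr11:102897151-102897450 (-) for Gfap.
Prph: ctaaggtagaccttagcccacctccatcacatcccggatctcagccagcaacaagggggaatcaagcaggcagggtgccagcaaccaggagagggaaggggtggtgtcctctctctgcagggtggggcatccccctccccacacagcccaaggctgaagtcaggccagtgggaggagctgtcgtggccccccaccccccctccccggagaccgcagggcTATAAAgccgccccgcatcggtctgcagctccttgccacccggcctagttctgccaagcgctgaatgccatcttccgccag
Vip: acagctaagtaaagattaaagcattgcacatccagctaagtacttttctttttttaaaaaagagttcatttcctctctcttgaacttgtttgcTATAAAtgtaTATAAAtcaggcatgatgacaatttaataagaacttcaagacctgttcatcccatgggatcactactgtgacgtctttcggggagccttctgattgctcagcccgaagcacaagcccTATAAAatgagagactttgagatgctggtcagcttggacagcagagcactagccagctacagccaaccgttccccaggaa
Tac1: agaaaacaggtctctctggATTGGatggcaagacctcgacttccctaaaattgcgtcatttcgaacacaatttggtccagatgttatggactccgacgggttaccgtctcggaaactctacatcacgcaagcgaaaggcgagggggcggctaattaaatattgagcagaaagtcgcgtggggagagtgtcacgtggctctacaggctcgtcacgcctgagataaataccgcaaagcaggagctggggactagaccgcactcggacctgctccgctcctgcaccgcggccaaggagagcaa
Gfap: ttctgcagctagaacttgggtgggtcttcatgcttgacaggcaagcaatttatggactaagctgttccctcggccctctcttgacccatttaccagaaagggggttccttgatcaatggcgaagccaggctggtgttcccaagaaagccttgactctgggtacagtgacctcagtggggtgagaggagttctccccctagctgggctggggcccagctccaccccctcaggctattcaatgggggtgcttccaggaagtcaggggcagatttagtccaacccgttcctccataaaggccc

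Prph held a TATAAA 31 bases and Vip one 30 bases before the start, Vip had further copies 147 and 157 bases before it, Tac1 had a CCAAT box on the other strand 231 bases before it, and Gfap had none of the 3 motifs. TATAAA stood in 16.7% of the 24 member windows and in 15.7% of all 27025 windows of this length, CCAAT in 58.3% and 41.1%, and CAGCTG in 20.8% and 18.3%. On both strands ACAAAG stood in 4.17% of member windows against 21.0% of all, ACAATG in 12.5% against 14.3%, TGACGTCA in 4.17% (Th) against 2.03% and GGACAGC in 8.33% against 7.59%. TTCAGCACC stood in 0 member windows and in 0.433% of all. A paired homeodomain site, with TAATT on the left and, after any 2 bases, the right part ATTA, stood in 0 and 0.303%, and the same with TAATC on the left in 0 and 0.155%. These matches are descriptions of letters and not of binding.

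The second comparison asks how colon of mice that received CD4 T cells differed from colon of untreated knockout mice. Most neuronal and glial genes were higher after transfer. Of 32 tested members 25 rose, 1 fell (Tac1) and 6 did not pass the test (Chat, Slc18a3, Nos1, Phox2a, Ret and Gfra3), against 17.0% of all tested genes that rose and 14.2% that fell. The median log2 fold change was 1.70, beside -0.019 over all tested genes. Transferred values lay over all knockout values for 22 tested members, against 17.6% of all tested genes, and under them for 1, against 16.6%. The comparison shares its knockout libraries with the first one, so the values of the pair of comparisons are not independent.

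All 9 genes of neuronal cytoskeleton and growth rose, by 1.33 (Tubb3) to 2.90 (Nefl). Nefl had 189.8, 297, 274, 186 and 288 normalized counts in the transferred libraries, far over the knockout values of 24.2 to 39.2, with an adjusted p of 7.67e-05 from limma. Nefm changed by 2.15, Prph by 1.84, Uchl1 by 1.75, Stmn2 by 1.75 and Gap43 by 1.68, with adjusted p of 0.00171, 0.0041, 0.00236, 0.00366 and 0.00448. The RNA-binding protein genes Elavl3 and Elavl4 rose by 1.89 and 1.59 (adjusted p = 0.00967 and 0.0188), and for Elavl4 transferred 4 (24.8) lay under knockout 1 (28.4). The release genes Snap25 (1.74 (standard error 0.36, adjusted p = 0.00422)) and Syt1 (2.14 (standard error 0.38, adjusted p = 0.00216)) rose too. Ncam1, with 259, 208, 201, 189.6 and 182 normalized counts after transfer, rose by 2.00 (adjusted p = 0.000206), and L1cam, with 2391 to 3268, by 0.44 (adjusted p = 0.0156).

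Transmitter genes were more mixed. Calb2 rose by 2.48 (standard error 0.36, adjusted p = 0.000757) to 319, 431, 356, 179 and 258 normalized counts, with all transferred libraries over all knockout libraries. Chrna3 rose by 1.93 (adjusted p = 0.01), to 103 ± 27.3 normalized counts (SD, n = 5). Slc18a3 had 25.6, 54.3, 64.9, 24.8 and 44.9 after transfer, among which transferred 1 and 4 lay within the knockout range of 16.4 to 40.1, and its change was 0.59 (standard error 0.40, adjusted p = 0.285). Chat, with 17.3, 30.2, 21.6, 19.1 and 14.2, changed by 0.76 (standard error 0.31, adjusted p = 0.0868). Nos1 had 204, 432, 331, 143 and 216 after transfer and changed by 1.31 (standard error 0.52, adjusted p = 0.0734), with transferred 4 under knockout 1. It passed with DESeq2 (1.15, adjusted p = 0.0453) and without knockout 1 (1.75, adjusted p = 0.0382), in a range of 0.0382 to 0.346. Vip had 378, 363, 215, 227 and 163 and rose by 1.39 (adjusted p = 0.0321), and Gal had 91.3, 142, 136, 29.5 and 75.6 and rose by 1.71 (adjusted p = 0.0232). In both peptide genes 1 transferred library overlapped with the highest knockout library. Dbh, with 45.6, 45.3, 39.3, 16.2 and 17.5, rose by 2.02 (adjusted p = 0.0209).

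Tac1 was lower after transfer than in knockout colon, by 1.56 on the log2 scale (standard error 0.31, adjusted p = 0.00341). The highest of the 5 transferred libraries (298) stayed under the lowest knockout library (457). Every alternative fit kept this call.

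Hand2 rose by 1.72 (adjusted p = 0.00159) to 253, 477, 376, 204 and 364 normalized counts. Phox2a stayed at 20.1, 37.2, 18.7, 11.4 and 26.3 and changed by 0.07 (standard error 0.37, adjusted p = 0.897). Gfra1 rose by 1.75 (adjusted p = 0.0024) and Gdnf by 1.15 (adjusted p = 0.0279), with 80.3, 45.3, 62.9, 57.2 and 38.3 normalized counts of Gdnf after transfer. Ret, at 197, 333, 213, 159 and 274, changed by 0.18 (standard error 0.31, adjusted p = 0.684) and Gfra3, at 45.6, 19.1, 41.3, 26.7 and 30.7, by 0.31 (standard error 0.29, adjusted p = 0.454). The direction of the Phox2a and Ret values turned under some alternatives. Among the glial genes S100b rose by 2.85 (adjusted p = 0.000533), Sox10 by 1.60 (0.00101), Gfap by 1.08 (0.0248) and Entpd2 by 0.30 (0.0163). Transferred libraries lay over knockout libraries for all 4.

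The number of members that rose fell from 25 to 17 when knockout 3 was left out and to 19 when knockout 4 was. Of the 26 members called, 18 kept their call under every alternative fit that tested them. Those that lost it at least once were Elavl4, L1cam, Vip, Gal, Dbh, Gdnf, Gfap and Entpd2.

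The third comparison sets transferred against control colon. No member passed the test in either direction. By limma 13 of the 32 members had an unadjusted p under 0.05, edgeR on recovered reads called 0 (14 unadjusted) and DESeq2 on recovered reads called 3 lower (Sox10, Hand2 and Tubb3; 16 unadjusted). Over all tested genes 0.453% were called lower and 1.14% higher by the limma adjusted p. The share of all tested genes with an unadjusted p under 0.05 was not determined, so the unadjusted counts have no background beside them. The median of the members was -0.63 on the log2 scale, beside -0.007 over all tested genes, and all 32 values were under 0. The sign held for 27 members under every alternative that tested them and turned for L1cam, Chat, Vip, Dbh and Gfra3 under at least 1. A p that missed the threshold does not show that the groups were alike.

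The lowest value was that of Slc18a3, with 25.6, 54.3, 64.9, 24.8 and 44.9 normalized counts after transfer against 90.4, 129 and 57.3 in control colon and a change of -1.11 (standard error 0.40, adjusted p = 0.167). Phox2a (-0.996, standard error 0.37, adjusted p = 0.177) and Hand2 (-0.99 (standard error 0.29, adjusted p = 0.104)) came next. The smallest adjusted p was that of Sox10 (-0.86 (standard error 0.25, adjusted p = 0.0995)), whose highest transferred value (104) was under its lowest control value (111). Transferred values lay under all control values for 5 members (Tubb3, Gap43, Hand2, Sox10 and Entpd2), against 5.49% of all tested genes, and over them for 0, against 6.09%. Nearest to 0 were Gfra3 (-0.01), Vip (-0.03), Chat (-0.05) and L1cam (-0.07).

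The level of other members relative to a sum of neuronal genes was described with no test. For this sum, the normalized counts of the 9 cytoskeleton and growth genes and the pair of release genes were added up. The ratios are not shares of RNA within neurons, because these members lie outside the sum and other cells can hold their RNA. This sum was 3734, 4231 and 2338 in the control, 897, 592 and 324 in the knockout and 1723, 2657, 2380.1, 1347 and 2184 in the transferred libraries. The knockout sums were all under the control sums, and knockout 4 had the lowest.

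Per 100 counts of that sum, Tac1 had 11.2, 10.4 and 8.11 in control colon, 50.98, 125 and 350.0 in knockout colon and 12.2, 9.31, 12.5, 18.5 and 10.6 after transfer. Ret had 10.8, 11.7 and 9.05, then 22.4, 46.8 and 44.6 and 11.4, 12.5, 8.96, 11.8 and 12.5. In both, all knockout libraries stood over the other 8. In all, this held for 5 of the 21 tested members outside the sum, which were Tac1, Ret, Slc18a3, Phox2a and Entpd2, while S100b alone stood under and 15 overlapped. The sum itself was lower in knockout colon, so any gene that fell less than the sum has a higher ratio there. Before the division Tac1 rose, Slc18a3 and Entpd2 fell, and Ret and Phox2a did not pass the test. The share of all tested genes that stood over in this way was not determined. Phox2a was at 1.18 to 1.51 in control, 1.97 to 8.11 in knockout and 0.784 to 1.401 in transferred colon. Entpd2 was at 16.4 to 28.8, 53.8 to 147 and 21.4 to 43.3, and S100b at 1.62 to 2.405, 0.676 to 1.47 and 2.04 to 3.18. Slc18a3 was at 2.42 to 3.05 in control, 4.48 to 5.07 in knockout and 1.48 to 2.73 in transferred colon. Vip had 6.46 to 8.96 in control and 13.5 to 20.8 in knockout colon and a wide 7.47 to 21.9 after transfer. Nos1 (9.95 to 15.6, 11.5 to 23.7 and 9.88 to 16.2), Hand2 (15.2 to 22.1, 14.8 to 21.6 and 14.7 to 17.9) and Calb2 (11.03 to 16.02, 6.06 to 14.9 and 11.8 to 18.5) overlapped between the groups. The glial sum of S100b, Sox10 and Gfap per 100 neuronal counts was 18.5, 14.6 and 17.7 in control, 17.4, 23.1 and 31.8 in knockout and 15.1 to 19.1 in transferred colon, with the highest ratios in knockout 4 and knockout 3.

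**Figure D4:**
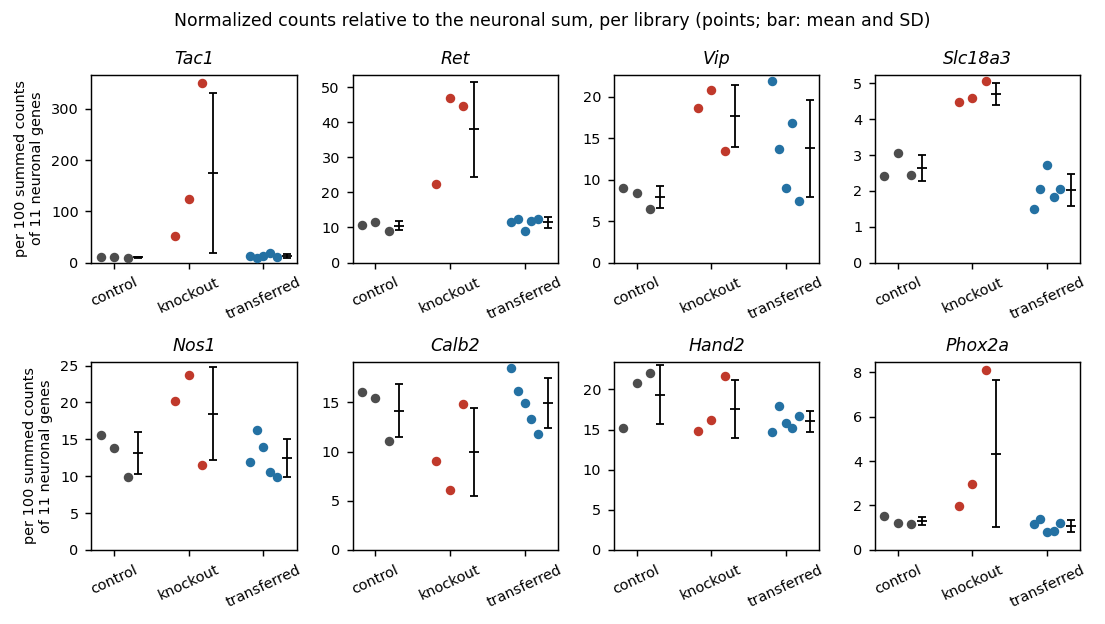
Normalized counts of 8 members per 100 summed counts of 11 neuronal genes in each library (points, in replicate order), with the mean and SD of the group; the vertical axes start at 0 and differ between panels. Tac1 reaches 350.0 in knockout 4, and Ret, Slc18a3 and Phox2a are higher in the 3 knockout libraries than in all others, whereas Nos1, Calb2 and Hand2 overlap.

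Other listed genes of the enteric nervous system mostly moved in the same direction as the module. They were chosen with earlier results of these data known, so they are not an independent check. Of 43 tested other neuron genes (47 listed) 32 fell between knockout and control colon, 0 rose and 11 did not pass the test. Their median was -2.07 on the log2 scale, and over all tested genes 22.9% fell and 22.7% rose. The smallest adjusted p were those of Ddc (-2.23 (standard error 0.22, adjusted p = 2.62e-05)), the decarboxylase that makes serotonin and dopamine, the CGRP gene Calcb (-2.95 (standard error 0.29, adjusted p = 2.74e-05)), the neuromedin U gene Nmu (-5.05 (standard error 0.54, adjusted p = 4.9e-05)) and the neurturin coreceptor gene Gfra2 (-2.07 (standard error 0.23, adjusted p = 5.98e-05)). Ddc had a mean of 778 normalized counts in control colon, beside 5.29 for Th and 39.9 for Dbh. Which cells held the Ddc RNA was not determined, so its fall is not a result on neurons alone. Nmu had 94.2, 78.5 and 114 normalized counts in control and 3.92, 3.87 and 0 in knockout colon. After transfer 25 rose and 0 fell, against 17.0% and 14.2% of all tested genes. Against control colon Calcb alone was called, with 38.3, 52.3, 43.2, 24.8 and 40.5 normalized counts beside 96.1, 89.5 and 129 (-1.39, adjusted p = 0.0296). Of all tested genes 0.453% were called lower there. Of 16 tested other glia genes (18 listed) 10 fell, 1 rose and 5 did not pass the test, with a median of -1.58. Lgi4, Gpr37l1 and Ngfr were among those with the smallest adjusted p (5.98e-05, 7.32e-05 and 0.000332) and changed by -1.92, -2.62 and -1.86. Cnp, a myelin phosphodiesterase gene, went the other way (1.03 (standard error 0.18, adjusted p = 0.000715)). After transfer 11 of the glia genes rose and Cnp fell.

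Genes of the smooth muscle around the myenteric plexus moved with the module. All 16 smooth muscle genes fell in knockout colon, with a median of -2.62, against 22.9% of all tested genes. All 16 rose after transfer, with a median of 1.77, against 17.0%. After transfer 8 were called lower than in control colon, against 0.453% of all tested genes. Actg2, Tpm2, Myl9 and Smtn fell by 2.98, 2.78, 2.75 and 2.75. The summed muscle level was 280569 to 351671 normalized counts in the control, 41502 to 59653 in the knockout and 123508 to 197822 in the transferred libraries. Per 100 counts of smooth muscle genes, the 11 neuronal genes had 1.29, 1.203 and 0.833 in control, 1.503, 1.43 and 0.743 in knockout and 1.27, 1.34, 1.34, 1.09 and 1.29 in transferred colon, so the 3 groups overlapped in this ratio. The glial sum per 100 muscle counts was 0.147 to 0.239 in control, 0.236 to 0.329 in knockout and 0.172 to 0.256 in transferred colon. Control and knockout colon overlapped narrowly here, with control 1 at 0.239 and knockout 4 at 0.236. Knockout 1 and knockout 3 (0.261 and 0.329) lay over all other libraries. No gene of the muscle list was at 0 reads in any library.

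**Figure D5:**
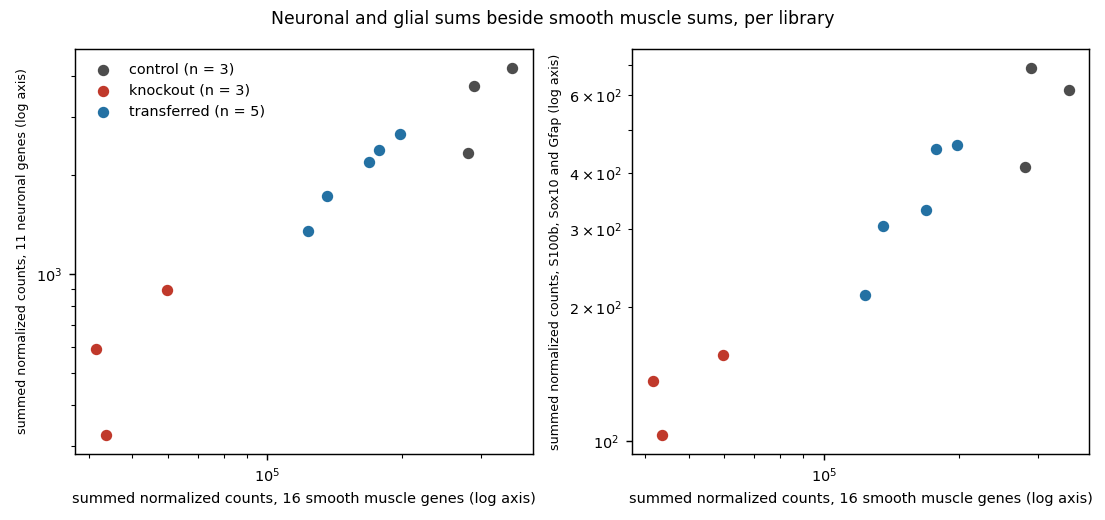
Summed normalized counts of the 11 neuronal genes (left) and of S100b, Sox10 and Gfap (right) against the summed normalized counts of 16 smooth muscle genes in each library, on log axes. The knockout libraries lie at the lower left, the control libraries at the upper right and the transferred libraries between.

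All 10 fat cell genes fell too (median -2.72), with Adrb3, Cidec, Lep and Lipe named by the smallest adjusted p (0.000219, 0.00155, 0.00166 and 0.00221), and their sum was 9144 to 21703 normalized counts in control, 5106 to 6660.0 in knockout and 9842 to 15094 in transferred colon. Of 6 mesothelium genes 3 fell (Muc16, Wt1 and Upk3b), of 10 fibroblast genes 4 (Dpt, Col6a3, Col14a1 and Lum) and of 5 tested genes of the interstitial cells of Cajal 1 (Etv1, -1.90), whereas Kit changed by -0.62 (standard error 0.40, adjusted p = 0.227). Of 12 epithelial genes 2 rose (Cdh1 and Krt18) and 0 fell, with sums of 317978 to 390827 in control and 369407 to 474018 in knockout colon. Over all tested genes 22.9% fell and 22.7% rose. The counts of interstitial cell and epithelial genes were not above these shares. The immune lists rose, with 11 of 11 T cell genes (sum 385 to 451 in control and 1948 to 2051 in knockout colon, 709 to 2163 after transfer), 9 of 9 B and plasma cell genes, 7 of 10 macrophage and dendritic cell genes (Cd209a fell by 2.69) and 6 of 6 tested neutrophil genes (sum 21.9 to 30.9, 1631 to 4926 and 36.2 to 281). The part of muscle, fat and immune RNA and of mitochondrial read share in the results on the module was not tested.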

How the data were processed

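The deposited signal values are the authors' normalized counts per gene, 1 factor per library. Per the labels the genome build was GRCm39 and the tools HISAT2 2.2.1, SAMtools 1.13, HTSeq 1.99.2 and DESeq2 1.40.2 (submitters' processing notes); neither strand setting nor annotation release is named there. The study's methods name a further aligner and sequencing site, but the labels give HISAT2 and BGI Genomics for all 11 libraries. A single factor leaves a change in tissue makeup in the values. The values of all 11 libraries were whole multiples of 1 step within 0.05 (100%), and reads were recovered from it for the count tests. The steps of control 2 and transferred 2 (0.994 and 1.01) lie so near 1 that reads and rounded values are hard to tell apart by the step alone.

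Gene names and coordinates came from GENCODE (GRCm39; 99.2% of identifiers matched). limma 3.58.1 (R 4.3.3) with a variance trend was fitted to log2(normalized count + 1) of genes with a mean of at least 10, all 3 groups in 1 fit, after tests on simulated data. All members are described, and of each other list the up to 4 genes with the smallest adjusted p between knockout and control and any called against its list. A few results that this rule would name are not reported here. The members and lists were chosen with earlier results of these data known, and the printed promoters after their values were seen. Alternatives were pseudocounts of 0.5 and 10, no filter or a mean of 50, TMM, quantile normalization, edgeR 4.0.16, DESeq2 1.42.0, 2 groups only, no trend, replicate block, the study's threshold (p of 0.05, log2 fold change of 0.6) and each library left out. No pair of libraries was a duplicate.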

Additional observations from a re-analysis of the deposited data

Results flagged for a closer look

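In the 5 transferred libraries, S100b had 54.8, 54.3, 63.9, 32.4 and 52.6 normalized counts, and transferred 4, at 32.4, lay apart from the others. Its gap to the next value was 0.712 of the group's range on the log2 scale, just over the critical value of 0.710 for 5 libraries. This was 1 of 32 groups examined, and chance gives about 1 in 20. Transferred 4 was the lowest of its group for 21 members.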

How the results depend on the processing

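Between knockout and control colon 27 members fell, 25 to 30 with each library left out and 23 to 29 under the other alternatives. The 23 came from the filter at a mean of 50, where only 25 members were tested. The count of 1 rising member (Tac1) was 0 with the replicate block and 0 to 1 with a library left out. After transfer 25 members rose against knockout colon (17 to 26 with a library left out, 21 to 26 otherwise) and 1 fell under all of them. The 21 again came from the 25 members tested at a mean of 50. Against control colon 0 were lower by limma, 3 with DESeq2, 1 with the replicate block (Hand2) and 12 with the study's threshold. None was higher under any. The shares of all tested genes under these alternatives were not determined. Of 28 members called between knockout and control 23 kept their call in every fit that tested them (not Tac1, Vip and Dbh, nor, under the study's fold threshold alone, L1cam and Entpd2), and of 26 called after transfer 18 did. Calls were gained at least once by Chat, Phox2a and Ret in the first comparison and by Chat and Nos1 in the second. No called member changed its direction. Values that did were not called. Against knockout colon Phox2a (0.07) was -0.2 under quantile normalization and under the replicate block and -0.12 to 0.28 with a library left out, and Ret (0.18) was -0.1 under the block and -0.05 to 0.42. Against control colon, under the block, Chat was 0.05, Vip 0.4 and Dbh 0.33, and Gfra3 was 0.0 with a pseudocount of 10, 0.01 with TMM, 0.06 with edgeR and 0.04 with DESeq2. With a library left out the ranges were L1cam -0.12 to 0.01, Chat -0.3 to 0.19, Vip -0.42 to 0.19, Dbh -0.58 to 0.21, Gfra3 -0.14 to 0.16. The cause was not tested. Same-numbered samples of different groups correlated by -0.1 to 0.39 over all genes, and differently numbered ones by -0.4 to 0.28. With so few libraries this cannot show whether the numbers pair samples, and the main fit does not use them. Depth limits Npy, Th and Chat. It also limits the called members S100b, Dbh and Elavl3, with 22, 26 and 34 reads over the 3 knockout libraries.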
